A study of Mus musculus with 2 samples.

Results

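Collagen VI, the FACIT collagens and other minor collagens were followed in droplet transcriptomes (10x Genomics, 3′ ends of transcripts) of mouse long bone periosteum through 10 genes, Col6a1, Col6a2, Col6a3, Col6a6, Col8a1, Col12a1, Col14a1, Col15a1, Col16a1 and Col22a1, taken by symbol from the 32288 features of the count tables. Cells of femur and tibia periosteum from wild-type C57BL6 mice aged 4 weeks were sorted as CD45-, CD31- and Ter119-, so that blood, endothelial and erythroid cells should be few, and were sequenced in 2 libraries of that single condition. How many mice each library pooled is not given in the sources used here, so every p-value measures only the spread between these 2 libraries, and the question asked was which stromal cell group carries each chain.

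Collagen VI is a microfibrillar collagen that surrounds cells in most connective tissues. Its alpha1 and alpha2 chains join an alpha3 chain, or one of the chains related to alpha3 such as the alpha6 chain of Col6a6, and the trimers assemble into beaded filaments. FACIT collagens (fibril-associated collagens with interrupted triple helices) do not form fibrils of their own but sit on or near collagen fibrils, and collagen VIII is a short-chain, network-forming collagen. In bone, the periosteum is the fibrous sheath that holds skeletal stem and progenitor cells over a layer of osteoblasts.

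Col6a1 and Col6a2 lie on the same strand of chromosome 10 with 85162 bases between them in the mouse GRCm38 annotation, and Col6a3 lies on chromosome 1. The bases upstream of the start of each of these 3 genes, from RefSeq windows on GRCm38.p6, are shown because these chains assemble into the main collagen VI trimer. The windows are chr10:76726169-76726294 for Col6a1, chr10:76623631-76623880 for Col6a2 and chr1:90843972-90844221 for Col6a3, all on the minus strand and read 5′ to 3′, and capitals mark a GC box.
Col6a1: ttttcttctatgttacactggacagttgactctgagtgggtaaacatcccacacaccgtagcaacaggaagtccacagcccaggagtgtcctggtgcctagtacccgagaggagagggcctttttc
Col6a2: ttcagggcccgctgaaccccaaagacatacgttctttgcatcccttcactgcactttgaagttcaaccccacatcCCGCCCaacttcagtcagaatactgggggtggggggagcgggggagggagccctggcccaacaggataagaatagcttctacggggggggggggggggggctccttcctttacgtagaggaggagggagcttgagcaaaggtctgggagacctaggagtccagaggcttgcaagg
Col6a3: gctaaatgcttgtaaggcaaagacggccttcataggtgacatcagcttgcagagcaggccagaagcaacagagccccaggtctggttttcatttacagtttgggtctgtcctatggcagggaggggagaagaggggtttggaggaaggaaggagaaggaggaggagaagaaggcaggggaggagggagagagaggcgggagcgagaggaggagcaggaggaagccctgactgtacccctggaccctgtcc
The GC box was searched on both strands as the letters GGGCGG. The promoter box known as CCAAT was searched likewise, as were the Runx motif spelled TGTGGT and finally the motif spelled TATAAA. The single match in the 3 windows was the GC box of Col6a2. Among all 32851 windows, the 250 upstream bases held a GC box in 32.7%, the CCAAT motif in 33.8%, the motif TATAAA in 12.4% and the Runx motif in 14.0%. Within the 126 bases available for Col6a1, the corresponding shares were 13.5%, 16.9%, 6.26% and 7.42%.

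The tables held 9932 barcodes with 100808649 UMIs (counted RNA molecules) in library 1 and 3659 barcodes with 33306452 UMIs in library 2. Of 6276 and 2893 barcodes that passed the limits on genes, UMIs and mitochondrial share, 91.9% and 60.8% fell into clusters with hematopoietic genes in spite of the sort. A further 80 and 53 cells were left out as hematopoietic when the rest was clustered again, which left 428 and 1080 stromal cells. Both libraries held UMIs of Xist and of the Y-linked Ddx3y, and they shared 8 barcodes. The tables also list reporter genes: EGFP had 0 and 6837 UMIs and tdTomato 1482 and 4627, although the labels call the mice wild-type, and the part of this in the results was not tested.

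Clusters were named from fixed marker lists with the 10 genes and 27 related genes left out of the clustering. The 4 names below were carried by groups with enough cells in both libraries: P-SSC-like (periosteal skeletal stem cell, 22 cells in library 1 and 294 in library 2), osteoblast-like (89 and 173), chondrocyte-like (27 and 124) and skeletal muscle-like (71 and 63). Their markers were present, with 8 of 9 and 7 of 9 P-SSC markers found in the 2 subclusters of that group, 6 of 8 and 7 of 8 osteoblast markers in the 2 osteoblast-like subclusters, 9 of 9 chondrocyte markers and 8 of 8 muscle markers. The P-SSC list was Ly6a, Cd34, Clec3b, Pi16, Dpp4, Mfap5, Mfap4, Thy1 and Pdgfra. It lacks Prx1, Lrp1 and CD13, which the paper reports for mouse P-SSCs. The name rests on this list alone, and whether these cells are stem cells was not tested. Other clusters kept only a number, cluster 3, led by Col10a1, Mgp and Aldh1a3 (68 and 73 cells), cluster 12, led by Tcim and Ddit4l (17 and 48), and cluster 13, led by Mmp9, Tnc and Fabp5 (24 and 35). Cluster 3 held 4 of 9 chondrocyte markers, 1 hypertrophic chondrocyte marker, 1 osteoblast marker and 2 neutrophil markers. Cluster 12 held 2 hypertrophic chondrocyte markers and 1 osteogenic progenitor marker. The chondrocyte-like cluster itself held 3 hypertrophic chondrocyte markers. In the tests below, clusters 3 and 12 were among the groups that chondrocyte-like cells were set against. Cluster 13 held 5 of 8 markers of Lepr+ stromal cells, 4 markers of osteogenic progenitors and 3 of smooth muscle cells. Its 10 leading genes included Mmp9, an osteoclast marker of the lists, and Kcnk2, an osteogenic progenitor marker, and no Lepr+ stromal marker. Its sums carried 5823 and 7276 CPM of 57 hematopoietic markers, Mmp9 among them, and the part of this in its values was not tested. Cluster 13 joined the Lepr+ stromal-like cells at a coarser resolution. The remaining groups are given by their values alone because 1 library held under 10 of their cells, Lepr+ stromal-like (63 and 6 cells), tenocyte-like (6 and 99), smooth muscle-like (4 and 21) and cluster 9, led by Msmp, Cytl1 and Prg4 (0 and 73). In library 1, most tenocyte-like UMIs of each of the 10 genes found there were in a single cell of the 6, and the sum carried 14820 CPM of skeletal muscle markers (7 of 8 with a UMI), whose part in its values was not tested.

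UMIs were summed over the cells of a group in each library and are given as CPM, scaled to the total UMIs of that sum, with exact Poisson 95% intervals in square brackets that cover counting error only. The sums ranged from 23750 UMIs (smooth muscle-like, library 1) to 3757442 UMIs (chondrocyte-like, library 2). A CPM value is a relative level within a group, and genes are compared across groups and not with each other, since capture differs between transcripts. All 10 genes passed the filter on low counts, Col6a6 and Col14a1 only through the P-SSC-like sums, so a difference in their tests was likely from the start.

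The chains fell into several distributions over the stroma. The collagen VI alpha1 to alpha3 chains were found in all compared stromal groups and, among the 6 groups tested, were lowest in osteoblast-like cells, Col14a1 and Col6a6 were found mainly in P-SSC-like cells, Col8a1 in Lepr+ stromal-like cells and cluster 13, Col12a1 in cluster 13 and chondrocyte-like cells, and Col22a1 in osteoblast-like cells. All 10 genes differed among the 6 stromal groups in edgeR's quasi-likelihood test (adjusted p between 7.35e-08 for Col22a1 and 0.00151 for Col6a2), against 52.9% of the 8890 genes tested. Col6a6 and Col14a1 are among the 10 by way of the filter, so nothing is read from that count. With the DESeq2 test, Col14a1 was not called (adjusted p = 0.269), nor was Col6a2 at clustering resolution 1.2 (0.0599), Col6a3 at resolution 0.4 (0.065) or Col16a1 without the numbered clusters (0.119).

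Each group was then set against the mean of the other 5 stromal groups, and a gene was called at an adjusted p under 0.05. P-SSC-like cells had 8 of the 10 genes higher and 1 lower, where 14.2% and 4.89% of all genes were called. Col6a6 and Col14a1 are among the 8 by way of the filter, so nothing is read from that count. Chondrocyte-like cells had 3 higher and 1 lower (all genes 11.4% and 5.3%), and cluster 13 had 3 higher and 0 lower (8.57% and 3.18%), with 1 lower at an unadjusted p under 0.05 and 1 lower by DESeq2. Osteoblast-like cells had 1 higher and 3 lower (9.83% and 4.75%), cluster 3 had 2 higher and 1 lower (16% and 11.4%), and cluster 12 had 0 higher and 6 lower (13.1% and 10.4%), with 0 higher at an unadjusted p under 0.05 and by DESeq2. The median fitted log2 difference of the 10 genes was 1.93 in P-SSC-like cells, where that of all genes was 0.05, and -1.72 in cluster 12, where that of all genes was 0.05. Col6a6 and Col14a1 are also in the P-SSC-like median, so nothing is read from it either. On the CPM scale, with counts under 3 held at the floor of 3 counts per sum, the medians of the 10 genes were 2.16 in P-SSC-like cells and -1.23 in cluster 12. Osteoblast-like cells had the lowest median of the 6 groups on that scale, -2.43, against a fitted median of -0.83. A floor of 3 counts is a lower CPM in a deeper sum, so differences at the floor follow depth, here and below. Col6a6, at 0 UMIs in both groups, came to -2.77 in osteoblast-like cells and 1.64 in cluster 13. Nothing is therefore read from the rank of these medians. Fitted with scaling to total UMIs only, the medians of all genes were 0.37 in P-SSC-like cells and 0.69 in cluster 12.

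The scaling of the sums matters for the groups known by number. TMM, the normalization used for the tests, gave factors of 0.469 and 0.673 to the 2 sums of cluster 3, whose 10 highest genes held 37.0% and 24.7% of its UMIs, and factors of 1.58 and 1.46 to cluster 12. With scaling to total UMIs only, an alternative chosen after the data were seen, the median of all genes moved by -0.996 in cluster 3, 0.63 in cluster 12, 0.51 in cluster 13, 0.31 in P-SSC-like, -0.28 in osteoblast-like and -0.17 in chondrocyte-like cells on the log2 scale. The counts of the 10 genes then became, for P-SSC-like cells, 9 higher and 1 lower, 6 and 0 in cluster 13, 0 and 2 in cluster 3 and 0 and 2 in cluster 12, while osteoblast-like and chondrocyte-like cells kept theirs. The percentage of all calls that were higher moved from 58.4 to 8.89 in cluster 3, from 55.8 to 89.1 in cluster 12, from 72.9 to 93.3 in cluster 13, from 74.4 to 86.5 in P-SSC-like, from 67.4 to 51.7 in osteoblast-like and from 68.3 to 57.8 in chondrocyte-like cells.

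**Figure D1:**
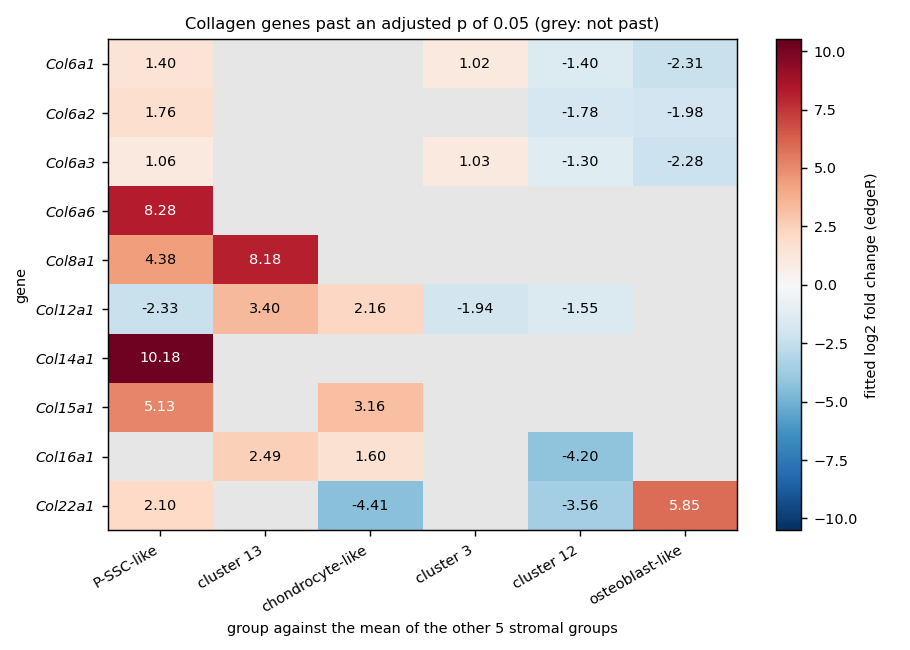
Log2 fold change of each of the 10 collagen genes in a group against the mean of the other 5 stromal groups, from edgeR with TMM scaling, with calls at an adjusted p under 0.05 marked. The largest fitted values among the calls are Col14a1 and Col6a6 in P-SSC-like cells, Col8a1 in cluster 13 and Col22a1 in osteoblast-like cells. Fitted values rest partly on sums at 0. On the CPM scale with counts under 3 at the floor, these were 7.43, 3.40, 6.61 and 5.28. Col14a1 and Col6a6 passed the filter only through the P-SSC-like sums, so nothing is read from their rank. Every call of cluster 12 is lower.

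Col6a1 encodes the alpha1 chain that every collagen VI trimer contains. P-SSC-like cells held 1081 CPM [961 to 1211] of it in library 1 and 892 CPM [857 to 928] in the other library. It stood at 502 and 555 in chondrocyte-like cells, and at 58.5 [49.4 to 68.8] and 102 [91.3 to 114] in osteoblast-like cells. The tenocyte-like cells held 1650 CPM from 6 cells, of which 44 of 56 UMIs were in 1 cell (757 CPM without it), and 1180 from 99 cells, and the smooth muscle-like cells 1389 and 1119 CPM from 4 and 21 cells. The P-SSC-like sums were thus above the chondrocyte-like sums, and the osteoblast-like sums were below those of all other stromal groups in both libraries, 18.5-fold and 8.73-fold below P-SSC-like cells. Skeletal muscle-like cells held 0 Col6a1 UMIs in both libraries. Against the mean of the other stromal groups, the log2 difference was 1.40 ± 0.28 (SE, adjusted p = 0.0023) in P-SSC-like cells and -2.31 ± 0.37 (adjusted p = 0.000611) in osteoblast-like cells, and both calls held without either library.

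Col6a2, the alpha2 chain, stood at 763 and 764 CPM in P-SSC-like cells, at 214 and 329 CPM in chondrocyte-like cells and at 34.5 and 89.1 CPM in osteoblast-like cells. Tenocyte-like cells held 1296 and 1027 CPM, the former with 39 of 44 UMIs in 1 cell (315 CPM without it). Smooth muscle-like cells held 40 UMIs in 4 cells of library 1 and 718 CPM in library 2. In both libraries the order was P-SSC-like above chondrocyte-like above osteoblast-like cells, and in library 2 tenocyte-like cells were above all of these. P-SSC-like cells were higher by 1.76 ± 0.38 (SE) on the log2 scale (adjusted p = 0.00297), and osteoblast-like cells were lower at -1.98 ± 0.50 (adjusted p = 0.0116). Without library 2 of the P-SSC-like cells the first call was lost (1.55, adjusted p = 0.0683), and without library 1 of the osteoblast-like cells the second (-1.43, adjusted p = 0.225).

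Col6a3 encodes the long alpha3 chain. It stood at 559 and 599 CPM in P-SSC-like cells, at 319 and 466 CPM in chondrocyte-like cells, at 37.7 and 81.1 CPM in osteoblast-like cells, and at 1797 (50 of 61 UMIs in 1 cell, 694 CPM without it) and 921 CPM in tenocyte-like cells. Smooth muscle-like cells held 17 UMIs in 4 cells of library 1 and 1065 CPM in library 2 (44 of 138 UMIs in 1 cell). Cluster 13 held 305 and 680 CPM. In library 2, smooth muscle-like and tenocyte-like cells thus stood above P-SSC-like cells, and cluster 13 was not apart from them beyond counting error. The P-SSC-like, chondrocyte-like and osteoblast-like values did not overlap, and their order was that of Col6a2. The log2 difference was 1.06 ± 0.33 (SE, adjusted p = 0.0357) in P-SSC-like cells and -2.28 ± 0.43 (adjusted p = 0.00157) in osteoblast-like cells. The P-SSC-like call was lost without library 1 (1.27, adjusted p = 0.0694) and without library 2 (0.79, adjusted p = 0.332), and the osteoblast-like call without library 1 (-1.80, adjusted p = 0.0635). An unnamed gene model on the same strand, Gm36970, overlaps Col6a3, so that reads of both cannot be told apart where they overlap.

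The 3 chains varied together across groups. Over the 14 sums of the model, Pearson's r of log2(CPM + 10) was 0.981 for Col6a1 with Col6a3, 0.983 for Col6a2 with Col6a3 and 0.976 for Col6a1 with Col6a2, and each of the 3 genes had both others as its most alike genes of all those tested. These are descriptions over sums that share libraries and include muscle-like sums near 0. In cells, all 3 chains had a UMI in 81.8% and 82.3% of P-SSC-like, 92.6% and 94.4% of chondrocyte-like, and 21.3% and 25.4% of osteoblast-like cells, although the median cell of the osteoblast-like group was the deeper one (29152 and 17981 UMIs, against 12312 and 9200 in P-SSC-like cells).

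Within chondrocyte-like cells, Col6a1 and Col6a3 were not called in the fit as reported (0.84, adjusted p = 0.0636, and 0.88, adjusted p = 0.0872). With the library as a block they were (0.84 ± 0.25 SE, adjusted p = 0.0216, and 0.88 ± 0.26, adjusted p = 0.0189). The cluster 3 sum of library 1 carried 11485 CPM of 57 hematopoietic markers, against 222 CPM in library 2. EGFP was among the 10 leading genes of cluster 3, with 2893 UMIs there in library 2. The part of either in its values was not tested. Cluster 3 held 364 and 323 CPM of Col6a1 and 234 and 282 CPM of Col6a3, values that lay between those of P-SSC-like and osteoblast-like cells. They were called higher under TMM (1.02 ± 0.29, adjusted p = 0.0193, and 1.03 ± 0.34, adjusted p = 0.0347), and Col6a2 with the block (0.94, adjusted p = 0.0475; 0.88 and 0.122 without it). With total UMIs only, the Col6a1 and Col6a3 differences turned to -0.086 and -0.032 (adjusted p = 0.859 and 0.985), and without library 1 of cluster 3 both calls were lost (0.65, adjusted p = 0.318, and 0.91, adjusted p = 0.219), as was that of Col6a3 without library 2 (1.16, adjusted p = 0.106). In cluster 12 the chains stood lower, with Col6a1 at 299 and 166 CPM and log2 differences of -1.40 (Col6a1, adjusted p = 0.0111), -1.78 (Col6a2, adjusted p = 0.0168) and -1.30 (Col6a3, adjusted p = 0.0282). All 3 were lost with total UMIs only (-0.73, -1.12 and -0.65) and without library 2 of cluster 12 (-1.10, -1.78 and -1.28), and Col6a2 and Col6a3 also without library 1 (-1.79 and -1.34).

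**Figure D2:**
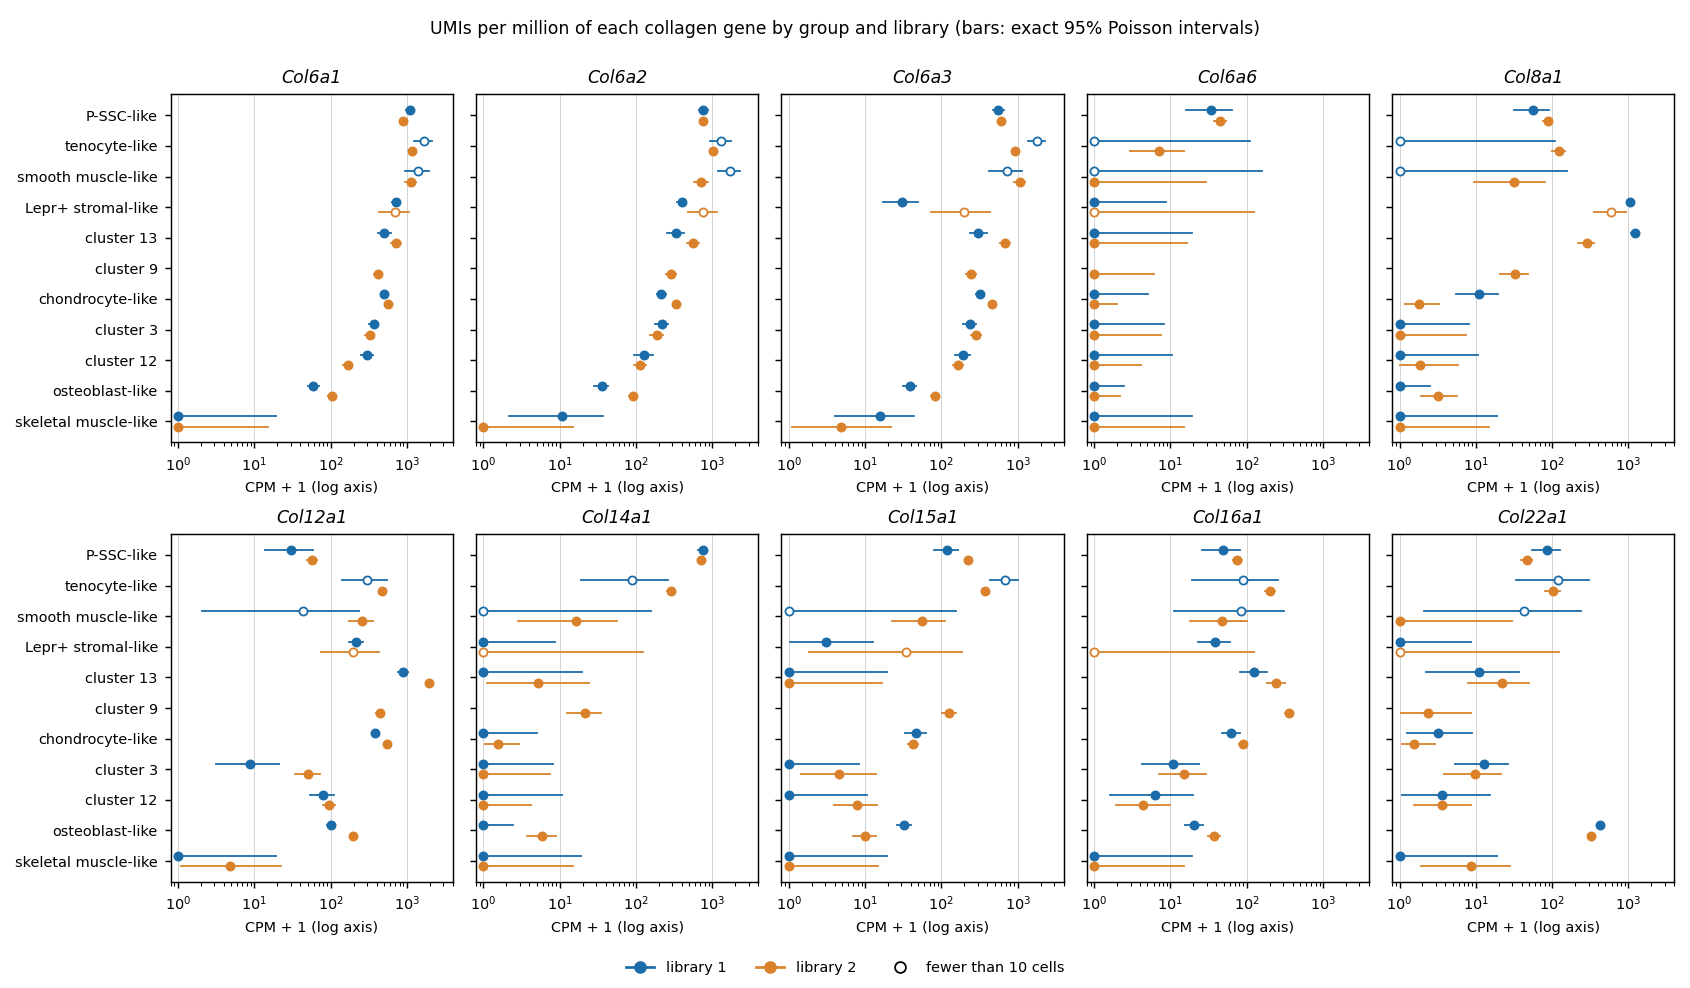
Level of each gene in each group, on a log axis of CPM + 1, with 1 point for each library and exact Poisson 95% intervals. Col6a1, Col6a2 and Col6a3 have points in all stromal groups, whereas Col6a6 has values above 10 CPM in P-SSC-like cells alone, and Col22a1 has its 2 highest points, 428 and 324 CPM, in osteoblast-like cells.

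Lepr+ stromal-like cells had Col6a1 and Col6a2 without a matching amount of Col6a3. Such cells are known from the perivascular stroma of bone marrow, while the paper names a Lepr+ cluster of mouse periosteum as P-SSCs. Where the cells found here came from was not tested. In library 1, where 63 of these cells were found, Col6a1 stood at 717 CPM [643 to 797], Col6a2 at 397 CPM and Col6a3 at 29.3 CPM [16.0 to 49.1], from 343, 190 and 14 UMIs. The 6 cells of library 2 held 694, 760 and 198 CPM, from 21, 23 and 6 UMIs. The highest cell for each gene gave 13, 10 and 5 of these UMIs. Without its highest cell, Col6a3 stood at 57.4 CPM. Col6a3 in P-SSC-like cells was 19.1 [11.04 to 35.8] and 3.02 [1.38 to 8.24] times its level in the Lepr+ group, while for Col6a1 the ratios were 1.51 [1.29 to 1.77] and 1.29 [0.84 to 2.08].

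Expressed as a share of the UMIs of the 3 chains, which says nothing of protein stoichiometry, Col6a3 made up 2.6% [1.4 to 4.3, exact binomial] of 547 UMIs and 12% [4.5 to 24.3] of 50 UMIs in Lepr+ stromal-like cells. The share was 23.3% and 26.6% in P-SSC-like, 30.8% and 34.5% in chondrocyte-like and 28.8% and 29.8% in osteoblast-like cells. Cluster 13 held 26.8% and 34.7%, cluster 3 28.7% and 35.7%, cluster 12 30.9% and 37.3%, tenocyte-like cells 37.9% and 29.4%, cluster 9 25.6%, and smooth muscle-like cells 18.9% [11.4 to 28.5] and 36.7%. The Lepr+ stromal-like share lay below those of these groups in each library. Only 11.1% and 16.7% of Lepr+ stromal-like cells had UMIs of all 3 chains. Where Lepr+ cells and cluster 13 formed 1 group at the coarser resolution (87 and 39 cells), the log2 differences from the other groups were 0.54 for Col6a1, 0.74 for Col6a2 and 0.02 for Col6a3, and without integration (91 and 37 cells) they were 0.44, 0.71 and -0.099. None of these passed the test (adjusted p from 0.176 to 1.00). The Lepr+ stromal-like sum of library 1 carried 19162 CPM of the 57 hematopoietic markers (32 with a UMI) against 397 CPM (5 with a UMI) in library 2, and the part of this in the low Col6a3 value was not tested.

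**Figure D3:**
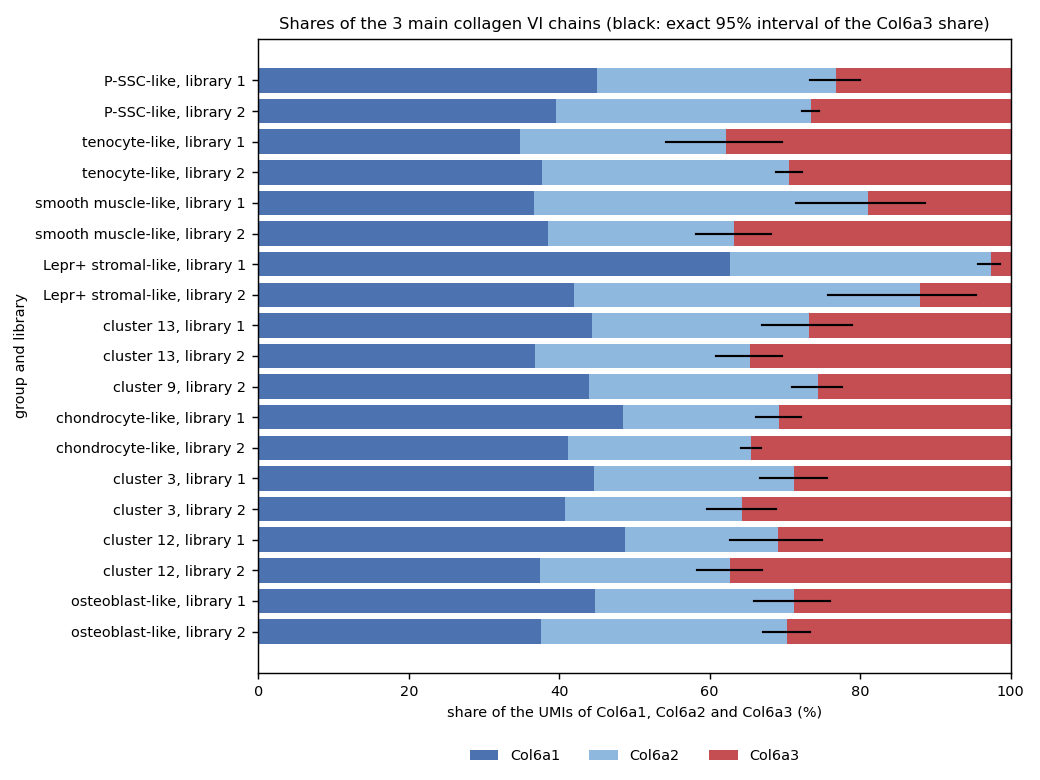
Share of Col6a1, Col6a2 and Col6a3 UMIs in the sum of the 3 chains, by group and library. The Col6a3 part is 2.6% and 12% in Lepr+ stromal-like cells and at least 18.9% in the other groups.

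Col6a6, whose alpha6 chain can take the place of alpha3, was found almost only in P-SSC-like cells. It stood at 32.9 CPM [15 to 62.4] in library 1, from 9 UMIs in 4 cells of which 5 UMIs were in 1 cell, and at 44.1 CPM [36.6 to 52.6] in library 2, from 122 UMIs in 59 cells. Tenocyte-like cells of library 2 held 5 UMIs and cluster 6, which was not compared, held 2, and the other stromal groups held 0. The P-SSC-like level was at least 27.3-fold and 46.0-fold higher than that of osteoblast-like cells and at least 9.96-fold and 55.2-fold higher than that of chondrocyte-like cells, taking 3 counts per sum as the floor. In edgeR the P-SSC-like group was called higher (adjusted p = 3.29e-05). Without library 2 of the P-SSC-like cells the gene did not pass the filter. The related Col6a4 and Col6a5 were close to absent, with 1 UMI of Col6a4 in osteoblast-like cells of library 1 and 4 UMIs of Col6a5 in P-SSC-like cells of library 2.

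Col14a1, a FACIT collagen of fibrous tissue, was highest in P-SSC-like cells and next in tenocyte-like cells. It stood at 752 CPM [653 to 862] and 705 CPM [674 to 737] in P-SSC-like cells and was detected in 77.3% and 85.4% of them. Tenocyte-like cells held 88.4 CPM (3 UMIs) and 286 CPM [251 to 325], cluster 9 held 20.5 CPM, and chondrocyte-like cells 0 and 0.53 CPM. Osteoblast-like cells held 0 and 4.79 CPM, the latter from 15 UMIs of which 12 were in 1 cell. Cluster 3, cluster 12 and Lepr+ stromal-like cells held 0 in both libraries. P-SSC-like cells of library 1 were at least 626-fold higher than osteoblast-like cells, and those of library 2 were 147-fold higher [89.0 to 263]. Over tenocyte-like cells the ratio was 2.46 in library 2. The border of these 2 groups depended on the clustering. Without integration, library 2 held 165 P-SSC-like and 200 tenocyte-like cells, in place of 294 and 99. At resolution 0.4 no group was named tenocyte-like, and P-SSC-like cells numbered 27 and 380. The part of this in the ratio was not tested. P-SSC-like cells were called higher (adjusted p = 3.31e-07 in edgeR), as the filter made likely for a gene that no other tested sum held above 4.79 CPM, but not with the DESeq2 test (adjusted p = 0.0879).

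Beside these P-SSC-like values stand those of the hematopoietic marker lists, which take in an osteoclast list. That list holds Ctsk, which the paper names as a marker of mouse P-SSCs. The 2 P-SSC-like subclusters met 1 and 2 markers of it. The sums that follow may thus hold UMIs of the group itself, and that part was not separated. The 57 hematopoietic markers summed to 17803 CPM (26 with a UMI) in the P-SSC-like sum of library 1 and to 2000 CPM (31 with a UMI) in that of library 2, and Adgre1, Cd3e, Cd3g, Jchain and Siglech were at 0 in both. B cell-like cells removed at the first clustering, which should lack the 10 collagens, had a UMI of any one of them in at most 0.450% (library 1, median 9120 UMIs) and 1.31% (library 2, median 7014 UMIs) of cells. These shares leave out the 13 and 28 B cell-like cells found at the second clustering, whose cluster met 6 P-SSC markers. Whether such UMIs came from free RNA or from doublets was not tested.

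Col15a1, a multiplexin of basement membrane zones, was highest in the tenocyte-like and P-SSC-like groups. P-SSC-like cells held 117 CPM [79.9 to 165] and 225 CPM [208 to 244], and tenocyte-like cells 678 CPM and 376 CPM, the former from 23 UMIs of 1 cell. Cluster 9 held 125 CPM, chondrocyte-like cells 45.1 and 41.3 CPM, osteoblast-like cells 31.7 and 8.94 CPM, and cluster 13 held 0 in both libraries. P-SSC-like cells were 2.59-fold and 5.46-fold above chondrocyte-like cells and at least 7.79-fold and 17.9-fold above cluster 13. The log2 difference of P-SSC-like cells was 5.13 ± 0.63 (SE, adjusted p = 4.9e-05), a fitted value that rests partly on sums at 0. On the CPM scale with counts under 3 held at the floor it was 3.61.

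Chondrocyte-like cells were also called higher for Col15a1 (3.16 ± 0.74, adjusted p = 0.00959), and here the call turned on the low groups in the mean (1.32 on the CPM scale with counts under 3 at the floor). Without the 3 numbered clusters, an alternative chosen after seeing the data, the difference was -0.34 (adjusted p = 0.712), without cluster 13 it was 1.72 (adjusted p = 0.0795), and without library 2 of the chondrocyte-like cells it was 3.14 (adjusted p = 0.0591).

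Col8a1 encodes the alpha1 chain of collagen VIII. Lepr+ stromal-like cells held 1049 CPM [960 to 1145] and 595 CPM (18 UMIs), and cluster 13 held 1229 CPM [1081 to 1393] and 281 CPM [218 to 357]. P-SSC-like cells held 54.8 and 86.3 CPM, tenocyte-like cells 0 and 121 CPM, and cluster 9 31.5 CPM. Chondrocyte-like, osteoblast-like, cluster 3 and cluster 12 cells held 0 to 9.90 CPM. Cluster 13 was 22.4-fold and 3.26-fold above P-SSC-like cells, so that both libraries had the same direction with unlike sizes. Cluster 13 divided by the Lepr+ group gave 1.17 [1.00 to 1.37] and 0.47, and the libraries thus gave no single order of this pair.

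Against the other stromal groups, cluster 13 was called higher for Col8a1 (8.18 ± 0.81 SE on the log2 scale, adjusted p = 0.000136), without either library too. P-SSC-like cells were also called (4.38 ± 0.94, adjusted p = 0.00928), a call lost without library 2 of that group (3.68, adjusted p = 0.162) and with the DESeq2 test (3.90, adjusted p = 0.0665). These fitted values rest partly on sums at 0 and are no bounds. On the CPM scale with counts under 3 at the floor they were 6.61 and 2.89. The Lepr+ stromal-like cells entered a test only where they took in cluster 13: 7.49 at the coarser resolution and 7.74 without integration.

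Col12a1, a FACIT collagen of tendon and periosteal fibrils, was highest in cluster 13, at 885 CPM [759 to 1025] and 1927 CPM [1755 to 2112]. In library 2, 155 of its 459 UMIs there (33.8%) came from 1 cell, and 1386 CPM remained without it. Chondrocyte-like cells held 385 and 555 CPM, tenocyte-like cells 295 (9 of 10 UMIs in 1 cell) and 476 CPM, cluster 9 438 CPM, and Lepr+ stromal-like cells 215 and 198 CPM. Osteoblast-like cells held 101 and 193 CPM, P-SSC-like cells 29.2 and 56.7 CPM and cluster 3 7.86 and 49.6 CPM. The order differs from that of collagen VI: chondrocyte-like cells stood 13.2-fold and 9.79-fold above P-SSC-like cells.

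For Col12a1, the log2 difference was 3.40 ± 0.39 (SE, adjusted p = 1.58e-05) in cluster 13 and 2.16 ± 0.40 (adjusted p = 0.00105) in chondrocyte-like cells, both also without either library. P-SSC-like cells were lower at -2.33 ± 0.56 (adjusted p = 0.00615), a call lost without library 1 (-1.89, adjusted p = 0.0979). Cluster 3 was lower (-1.94, adjusted p = 0.0185), but not without its library 1 (-1.28, adjusted p = 0.212). Cluster 12 was lower (-1.55, adjusted p = 0.0417), but not without its library 1 (-1.36), without its library 2 (-1.80) or with total UMIs only (-0.92).

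Col16a1, another FACIT collagen, had its highest value in cluster 9, 356 CPM [314 to 402] in the single library that held those cells. It stood at 125 and 244 CPM in cluster 13, 88.4 (3 UMIs) and 202 CPM in tenocyte-like, 61.6 and 87.8 CPM in chondrocyte-like, and 47.5 and 74.0 CPM in P-SSC-like cells. The osteoblast-like group held 19.6 and 36.1 CPM and cluster 12 5.20 and 3.43 CPM. Cluster 9 exceeded cluster 13 by 1.46-fold [1.10 to 1.98] in library 2. In the test, cluster 13 was higher by 2.49 ± 0.33 (SE, adjusted p = 0.000136) and chondrocyte-like cells by 1.60 ± 0.33 (adjusted p = 0.00346), while cluster 12 was lower at -4.20 ± 0.55 (adjusted p = 0.000165). The chondrocyte-like call was lost without library 2 of that group (1.27, adjusted p = 0.111), and P-SSC-like cells, at 0.83 (adjusted p = 0.124), were called with the library as a block (0.82, adjusted p = 0.0319).

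Col22a1, a FACIT collagen of tissue junctions, was the osteoblast-like gene of the 10. It stood at 428 CPM [403 to 455] and 324 CPM [304 to 345] in osteoblast-like cells, with a UMI in 97.8% and 93.6% of them, and no single cell gave over 3.1% of the UMIs. Tenocyte-like cells held 118 CPM (4 UMIs) and 100 CPM, P-SSC-like cells 84.0 and 45.5 CPM, cluster 6 40.8 and 95.3 CPM, cluster 13 10.0 and 21.0 CPM, and cluster 3 11.8 and 8.87 CPM. Chondrocyte-like cells held 2 UMIs in each library. Osteoblast-like cells were 5.10-fold and 7.12-fold above P-SSC-like cells and 36.3-fold and 36.6-fold above cluster 3. The log2 difference of osteoblast-like cells was 5.85 ± 0.36 (SE, adjusted p = 8.03e-09), that of chondrocyte-like cells -4.41 ± 0.68 (adjusted p = 0.000144) and that of cluster 12 -3.56 ± 0.68 (adjusted p = 0.00134).

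P-SSC-like cells were called higher for Col22a1 as well (2.10 ± 0.41, adjusted p = 0.00104), but few cells gave the UMIs. They were 23 UMIs in 2 cells of library 1 and 126 UMIs in 14 cells of library 2. P-SSC markers summed to 658 and 2324 CPM in those cells, against 10246 and 11670 CPM in the P-SSC-like cells without a Col22a1 UMI. Osteoblast markers summed to 1508 and 332 CPM in them, against 114 and 38.5 CPM, and tenocyte markers to 1398 and 815 CPM, against 173 and 579 CPM. The cells with Col22a1 were therefore poor in the markers that named their group, and 23 of 23 and 125 of 126 of the UMIs lay in 1 of its 2 subclusters. No doublet caller was run, and the part of these cells in the call was not tested. Without the numbered clusters the difference was 1.18 (adjusted p = 0.124).

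The share of cells with a UMI moved with these levels and with depth, and each share was also computed for cells thinned to 1000 UMIs. For Col22a1 in osteoblast-like cells the thinned shares were 35.7% and 34.3%, and for Col14a1 in P-SSC-like cells 40.6% and 43.1%. The thinned shares of Col6a1 reached 62.3% and 56.0% of P-SSC-like cells but 5.7% and 8.0% of osteoblast-like cells, whose unthinned shares were 38.2% and 42.8%. For Col8a1 they were 60.1% in Lepr+ stromal-like cells of library 1 and 51.0% and 27.4% in cluster 13, against 8.1% and 4.9% in P-SSC-like cells.

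**Figure D4:**
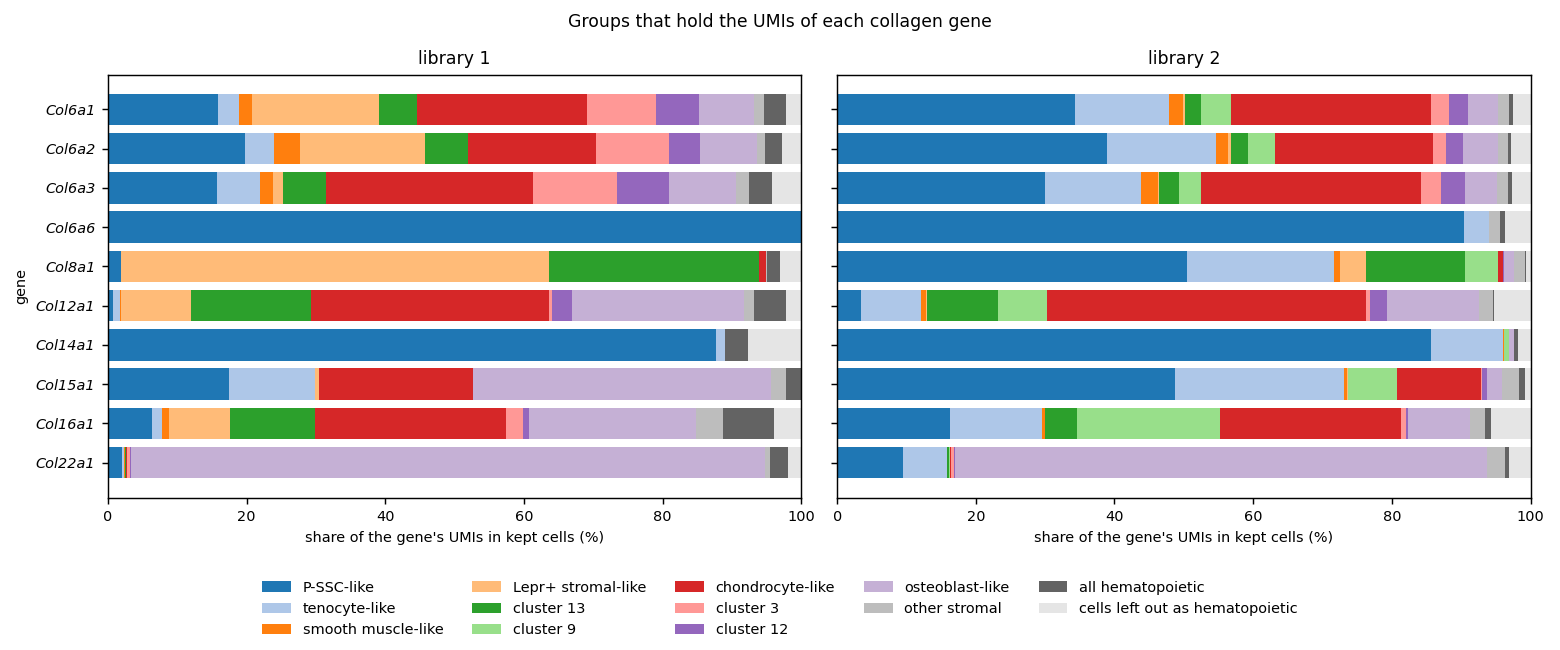
Percent of the UMIs of each gene that came from each stromal group, by library. P-SSC-like cells gave 87.7% and 85.7% of Col14a1 UMIs and osteoblast-like cells 91.4% and 76.8% of Col22a1 UMIs. The shares depend on how many cells of each group were sorted, so that 61.7% of Col8a1 UMIs of library 1 but 3.8% of those of library 2 came from Lepr+ stromal-like cells.

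The 2 subclusters of P-SSC-like cells, one led by Pi16, Mfap5 and Fbn1 (16 and 170 cells) and one by Mfap4, Eln and Apod (6 and 124 cells), shared the genes but not in equal amounts. In library 2, the first held 0.37 times [0.32 to 0.44] as much Col15a1 per UMI as the second, 0.37 times as much Col8a1, 0.43 times as much Col6a6 and 0.48 times as much Col16a1. Col14a1 (0.73), Col6a3 (0.75), Col6a2 (0.80) and Col6a1 (0.83) were closer to even. Library 1 had 6 cells of the second subcluster, and there the intervals of these ratios included 1. The 2 osteoblast-like subclusters had Col22a1 ratios of 1.41 in library 2 and 1.09 in library 1. Col6a1, Col6a2 and Col6a3 were 3.02, 3.68 and 4.23 times higher in one of them in library 2 and 1.24, 1.05 and 1.82 times in library 1. These are ratios of single libraries with no test.

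By the similarity of log2(CPM + 10) over the 14 sums, the genes most alike were Dpt (Pearson's r of 0.999), Fbln2 (0.998) and Cadm3 (0.997) for Col14a1, and Scn7a (0.9995), Alkal2 (0.996) and Islr2 (0.996) for Col6a6. For Col8a1 they were Fam20a (0.979), Pdgfrb (0.973) and Angpt4 (0.972), and for Col22a1 Sema3b (0.976), Mmp16 (0.923) and Pdzd2 (0.923). Col12a1 was most alike to Prr7 (0.925), Gpsm1 and Foxd2os, Col15a1 to Pqlc3 (0.883), Glt8d2 and Lefty1, and Col16a1 to Wdr83os (0.920), Aebp1 and Loxl3. After the collagen VI chains themselves, Col6a1 was most alike to Ctsz (0.955), and Col6a2 and Col6a3 to Pam (0.970 and 0.964). For a gene found in a single group, such a value says little more than that another gene is found there.

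The 2 lists of related genes were read in the same tests. Of 16 other collagens of these and neighbouring families, 15 were in the tables and 4 passed the filter, all of them also different among the groups. Col13a1 passed mainly through its osteoblast-like sums, so nothing is read from the count of 4. P-SSC-like cells had 3 of the 4 higher and 1 lower (all genes 14.2% and 4.89%), and cluster 13 had 4 higher (all genes 8.57%). The basement membrane chain Col4a1 stood at 420 and 330 CPM in P-SSC-like cells, 565 and 390 CPM in cluster 13, 638 and 331 CPM in Lepr+ stromal-like cells and 0.40 and 1.60 CPM in osteoblast-like cells, with log2 differences of 5.84 in P-SSC-like cells, 6.1 in cluster 13 and -3.57 in osteoblast-like cells. Col4a2 (5.32 and 5.07) and Col18a1, the other multiplexin (4.23 and 3.46), had the same direction in P-SSC-like cells and cluster 13. The 4 smooth muscle-like cells of library 1 and the 21 of library 2 held the most Col4a1, 5305 and 1914 CPM.

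Col13a1, a transmembrane collagen, shared with Col22a1 its highest level in osteoblast-like cells. Both were called lower in cluster 12, Col13a1 at -2.83 (edgeR, adjusted p = 0.0459), or -1.71 with counts under 3 at the floor. Their calls differed in P-SSC-like cells, chondrocyte-like cells and cluster 13. Col13a1 stood at 224 and 115 CPM in osteoblast-like cells, 85.0 and 16.8 CPM in cluster 13, 58.9 and 31.4 CPM in tenocyte-like cells and 0 and 0.72 CPM in P-SSC-like cells. The osteoblast-like group was higher by 5.62 ± 0.50 (SE, adjusted p = 1.01e-06) and P-SSC-like cells lower at -4.21 ± 1.05 (adjusted p = 0.00863), or -2.16 on the CPM scale with counts under 3 at the floor. Col13a1 passed the filter mainly through its osteoblast-like sums, so a call there was likely and nothing is read from it. Cluster 13 was higher by 2.71 (adjusted p = 0.0115). The medians of the 4 genes were 4.78 in P-SSC-like cells, 4.26 in cluster 13 and -2.75 in osteoblast-like cells. With counts under 3 held at the floor, which follows depth, they were 3.89, 3.64 and -3.57.

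Of 11 collagen receptors and collagen VI partners, 10 passed the filter and 9 differed among the groups (52.9% of all genes), the exception being Ddr1 (adjusted p = 0.18). P-SSC-like cells had 5 higher and 2 lower (all genes 14.2% and 4.89%), cluster 13 had 4 and 0 (8.57% and 3.18%), and osteoblast-like cells 3 and 2 (9.83% and 4.75%). Chondrocyte-like cells had 3 and 3 (11.4% and 5.3%), cluster 3 had 2 and 2 (16% and 11.4%) and cluster 12 had 0 and 4 (13.1% and 10.4%). With the library as a block, the counts became 4 and 4 in chondrocyte-like cells and 3 and 3 in cluster 3. They became 1 and 4 in cluster 12 and 5 and 3 in P-SSC-like cells. Antxr1, an anthrax toxin receptor that binds collagen VI, stood at 274 and 212 CPM in P-SSC-like cells and 22.0 and 10.4 CPM in chondrocyte-like cells (log2 differences of 2.27 and -1.96). Antxr2, the related receptor, had 1.43 and -1.90. Matn2, a matricellular protein, was higher in P-SSC-like (3.70) and chondrocyte-like cells (1.83) and lower in osteoblast-like cells (-3.08).

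Among integrins that bind collagen, Itga11 was higher in P-SSC-like (3.70), cluster 13 (3.77) and osteoblast-like cells (3.59). On the CPM scale with counts under 3 at the floor, these were 2.26, 2.10 and 1.52. Itga10 was higher in osteoblast-like (2.32) and chondrocyte-like cells (1.2, edgeR adjusted p = 0.0497), and P-SSC-like cells had less of it (-2.79). The higher calls of this list in chondrocyte-like cells fell to 2 with the DESeq2 test, with DESeq2 size factors and with total UMIs only. They rose to 4 with the library as a block and with no filter. Itga1 stood at 535 and 430 CPM in Lepr+ stromal-like cells and 330 and 206 CPM in cluster 13, was higher in cluster 13 (3.23) and cluster 3 (3.30) and lower in osteoblast-like (-5.39) and P-SSC-like cells (-2.02). The tyrosine kinase receptor Ddr2 was higher in P-SSC-like (2.35), cluster 13 (1.43) and osteoblast-like cells (1.33) and lower in cluster 3 (-2.36) and cluster 12 (-1.76). Itgb1, the beta chain of these integrins, was lower in chondrocyte-like cells (-1.28) and cluster 12 (-0.96) and higher in cluster 3 (1.16), all under the scaling by TMM. Cspg4, the NG2 proteoglycan, which binds collagen VI, was higher in chondrocyte-like cells (1.94), at 285 and 158 CPM. Total UMIs only changed the counts of this list to 1 higher and 6 lower in cluster 3 and to 1 and 0 in cluster 12.

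**Figure D5:**
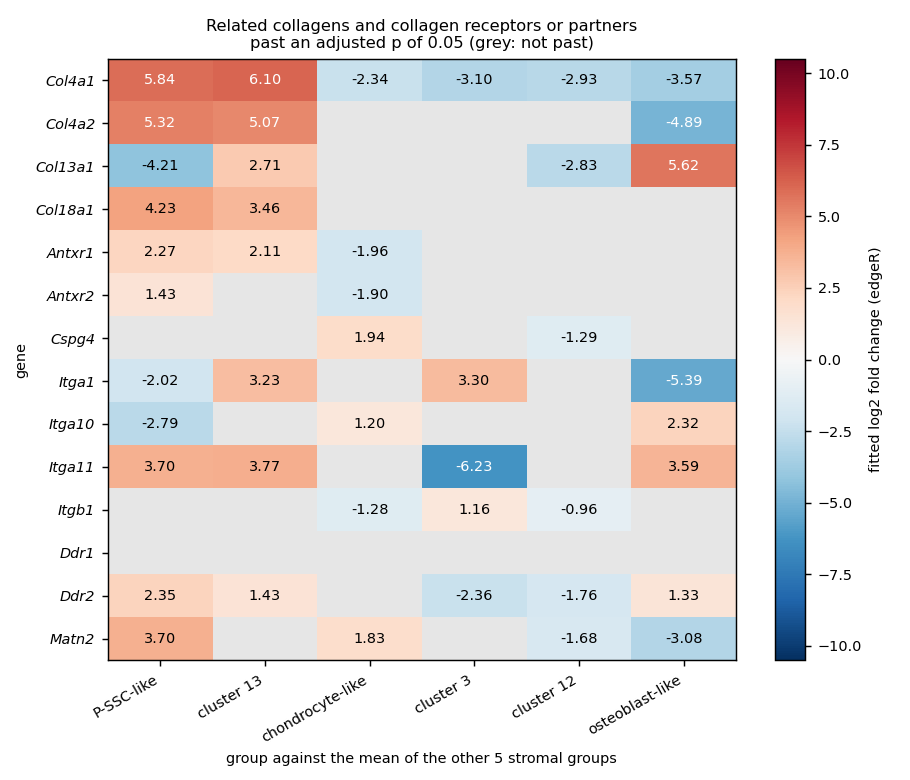
Log2 fold changes of the tested related collagens and of the collagen receptors and partners in each group against the mean of the other 5 stromal groups, from edgeR with TMM scaling. Col4a1, Col4a2 and Col18a1 are higher in P-SSC-like cells and in cluster 13, and Col13a1 in osteoblast-like cells.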

How the data were processed

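UMI counts per gene and barcode were deposited by the authors, made with Cell Ranger 6.1.2 on mm10 per the submitters' processing notes, and were used as raw counts. Barcodes with at least 500 genes, at least 500 UMIs and at most 10% mitochondrial UMIs were kept. The 2 libraries were integrated and clustered with Seurat 5.3.0 in R 4.3.3 (3000 variable genes, 30 anchor dimensions, 15 principal components, resolution 0.8). Clusters where over 50% of cells held hematopoietic genes were removed and the remaining cells were integrated and clustered again. The 10 members and 27 related genes, 37 in all, were left out of the clustering. No doublet caller was run.

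A marker counted for a cluster at a log2 fold of 1 over the other cells (with 10 CPM added) and a UMI in 20% of its cells. A cluster took the name with the highest share of markers, at least 3, unless another class had as many among its 10 leading genes. This rule was set after the clusters were seen. Numbered clusters were compared if 80% of their cells stayed together at resolutions 0.4 and 1.2, which left out cluster 6. Named clusters were exempt from this rule. Among them, 53.6% of chondrocyte-like cells and 60.2% of the larger osteoblast-like subcluster stayed together. The chondrocyte-like group still numbered 27 and 124 cells at both resolutions. Groups needed 10 cells in each library to be tested.

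The 14 group sums (6 stromal groups and skeletal muscle-like cells, 7 residual degrees of freedom) were tested with edgeR 4.0.16 (quasi-likelihood, TMM, filterByExpr, 8890 genes) with Benjamini-Hochberg adjustment over all of them. The test script was first run on simulated data. The sums of 1 library share its cells' processing and so are paired: over 21 pairs of groups, the correlation of the deviations was between 0.110 and 0.466 (median 0.258). Blocked values stand beside the calls of members that they change, and blocked counts beside those of the receptors. Of the other collagens, the block called 3 lower in cluster 12 in place of 2. Alternatives were DESeq2 1.42.0 (test and size factors), no filter, other resolutions, no integration, a 5% mitochondrial limit and leaving out a library. Total UMIs only, without cluster 13 and without the numbered clusters were added after seeing the data. The members, marker lists and related-gene lists were chosen with earlier results of these data known. The text names all members, the genes of the 2 related lists that passed the test or are counted, and the 3 genes most alike to a member. Coordinates are from GENCODE on GRCm38, the build called mm10. Intervals and floors (3 counts) cover counting error only.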

Additional observations from a re-analysis of the deposited data

How the results depend on the processing

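Leaving out 1 library of the group in turn gave 57 values for the calls of members, of which 37 kept their direction and their side of the threshold and 20 lost significance. Of 298 values under the other settings, 258 did so, 37 lost significance and 3 reversed: Col15a1 in chondrocyte-like cells without the numbered clusters (-0.34), and Col6a1 (-0.086) and Col6a3 (-0.032) in cluster 3 with total UMIs only. The causes were not tested.

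The replicate block (the library as a term) raised the genes called in chondrocyte-like cells from 1485 to 2234 and changed the calls of members given above, Col6a1 and Col6a3 in chondrocyte-like cells, Col6a2 in cluster 3 and Col16a1 in P-SSC-like cells, and no other. With DESeq2 size factors, the median of all genes moved by -0.12 in chondrocyte-like cells, 0.15 in cluster 13 and -0.12 in cluster 3.

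With total UMIs only, genes called moved from 2088 to 3331 in cluster 12, from 1045 to 1699 in cluster 13 and from 2430 to 4005 in cluster 3, and members called from 6 to 2 in cluster 12 and from 3 to 6 in cluster 13. At resolution 1.2, genes called fell to 830 in cluster 12 and 631 in cluster 13, and members called to 2 in cluster 12 and 0 in cluster 3 (edgeR, 2 higher at an unadjusted p under 0.05). At resolution 0.4, 2 members were called in chondrocyte-like cells and 0 in cluster 3 (edgeR, 1 higher and 1 lower at an unadjusted p under 0.05), and without integration 1 in cluster 3. In both, cluster 13 was not a group of its own and has no value. Of the named groups, P-SSC-like cells lost Col6a3 (1.09 at resolution 0.4 and 1.08 at 1.2) and Col12a1 (-0.95 and -1.73), chondrocyte-like cells lost Col12a1 (2.00) and Col16a1 (1.45) at 0.4, and osteoblast-like cells lost Col6a3 at 0.4 (-1.98) and Col6a2 at 1.2 (-1.90). Without the numbered clusters, 3058 genes in place of 4702 differed among the groups.

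Leaving out 1 library, genes called ranged from 4463 to 4994 among the groups, 981 to 1255 in P-SSC-like (1697 with both), 854 to 879 in chondrocyte-like, 798 to 847 in cluster 12, 463 to 527 in cluster 13, 1198 to 1352 in cluster 3 and 621 to 792 in osteoblast-like cells (1296 with both). Members called ranged from 9 to 10 among the groups, 5 to 7 in P-SSC-like, 2 to 4 in chondrocyte-like, 2 to 3 in cluster 12, 3 to 3 in cluster 13, 0 to 2 in cluster 3 (edgeR, 0 at an unadjusted p under 0.05 without library 1) and 2 to 4 in osteoblast-like cells. The shallowest sums of the tested stromal groups were those of cluster 13 (200082 and 238181 UMIs) and of P-SSC-like cells in library 1 (273830 UMIs), which limits what could be seen at 0 there.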
